A study of Mus musculus with 30 samples.

Results

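The genes described are the expressed long noncoding RNAs of macrophages taken from mouse tumours. They are the rows of the deposited count table typed lincRNA (long intergenic noncoding RNA) or antisense (transcribed against another gene) whose mean level reached 2 counts per 1000000 (CPM, the count over the library total, scaled) in at least 1 of the 6 groups. Of 46603 genes, 5632 carry these types and 189 met the rule, 113 of 3495 lincRNAs (3.23%) and 76 of 2137 antisense genes (3.56%). The same level was reached by 11221 of 22013 protein-coding genes (51.0%). The members were chosen by their group mean CPM, so these levels are a description. A gene could enter through 1 group in which it was high, so counts of members that differed between groups describe the 189 genes and support no statement about long noncoding RNAs as a class.

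RNA was sequenced in bulk from tumour-associated macrophages of wild-type C57BL/6 mice bearing subcutaneous 3LL-R tumours, a mouse lung carcinoma line. The cells were sorted by surface MHC class II into MHC-IIhi and MHC-IIlo subsets. Fresh cells (30000 per library) were lysed straight after sorting. The other cells (250000 per library) were cultured for 24 h either without lactate or with 20 mM sodium L-lactate, and each subset in each of the 3 states had 5 libraries. The cultured groups are called no-lactate and lactate below, and the labels name no other agent or allele. The labels call the libraries biological replicates without saying whether mice were pooled. Fresh and cultured cells differed in cell number and lysis as well as in culture, which cannot be told apart.

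Long noncoding RNAs are transcripts without a long open reading frame. Some build nuclear bodies (Neat1 the paraspeckle, Malat1 a component of speckles), some act on the chromosome they come from (Xist on the inactive X chromosome, Airn on the imprinted Igf2r domain), and others are the primary transcripts of microRNAs or small nucleolar RNAs. Many antisense genes lie across an immune gene, and in macrophages several are induced by microbial or interferon signals.

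Members were short and low. Their median merged exon length was 1964 bases with 3 exons, against 4022 bases and 10 exons in the coding genes above 2 CPM. The median level over all 30 libraries was 1.56 CPM per kilobase of exon in the members and 7.20 in those coding genes. Of the members, 12 exceeded 50 CPM and 26 exceeded 10 CPM on average over the 30 libraries, while 63 reached 2 CPM in all 6 groups and 30 in exactly 1. Just inside the threshold, RP24-487F9.4 had 2.00 CPM in its highest group, and just outside A830082K12Rik had 1.97 CPM. Of the 189 members, 89 overlap a coding gene on the opposite strand. In GENCODE M21, 183 have an entry, and 4 of these (Fam169b among them) are typed protein-coding there. Exons of 101 members overlap another gene's exons, 14 of them over at least 50% of their length. Counting is not stated to use strand, so reads from such a gene and its partner cannot be told apart.

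Library totals ran from 16913250 to 31481548 counts. In the cultured groups the numbers in the table header (1 and 3 to 7) are not the replicate numbers 1 to 5 of the labels, so these columns were assigned to groups and not to single samples, and library numbers here are those of the header. The lactate MHC-IIlo library numbered 5 stood apart: it had the highest level of its group in 72 of the 189 members, and 8 of 18 outlying values came from it. In that library the 8 macrophage markers summed to 3130 CPM, against 5692 to 6927 CPM in the other 4 of its group. Macrophage markers were present in every group (3130 to 10420 CPM summed, with none of the 8 at 0). Dendritic cell markers moved with the subset: their 6 genes summed to 12.8 to 34.6 CPM in fresh MHC-IIhi and 2.08 to 3.21 CPM in fresh MHC-IIlo, and to 19.8 to 66.0 against 0.374 to 1.11 CPM in no-lactate cells. T and NK cell markers summed to 6.89 to 11.9 against 0.633 to 4.47 CPM in the fresh subsets, and neutrophil markers to 177 to 279.6 against 438 to 640.5 CPM. Other sums also separated the fresh subsets: tumour epithelial markers had 486 to 619.7 in MHC-IIhi against 132 to 303 CPM in MHC-IIlo, B cell markers 2.63 to 10.98 against 0.392 to 1.12 CPM, and macrophage markers 4355 to 6575 against 8286 to 10420 CPM. Fibroblast sums overlapped (17.7 to 72.3 against 31.7 to 109 CPM), but 4 of the 6 fibroblast genes passed as higher in fresh MHC-IIlo. After culture without lactate, 4 of the 6 fell and 1 rose in MHC-IIlo, while 1 rose and 0 fell in MHC-IIhi. The change of 4 was more negative in MHC-IIlo by the interaction test. In culture, tumour epithelial markers had 31.3 to 96.3 CPM and B cell markers at most 0.392 CPM. Summed endothelial markers went from 88.6 to 121 CPM in fresh to 278 to 604 CPM in no-lactate libraries. By gene, 2 of the 3 tested passed as higher and 1 as lower in MHC-IIhi culture without lactate. In MHC-IIlo culture, 1 passed as higher and 2 as lower. Between the fresh subsets, 2 of these 3 were higher in MHC-IIlo. Neutrophil markers had 698 to 999 CPM in no-lactate, 1503 to 2288 CPM in lactate MHC-IIhi and 520.3 to 1646 CPM in lactate MHC-IIlo libraries. Of 5 tested neutrophil genes, 2 rose and 2 fell in MHC-IIhi culture without lactate, and 1 rose and 2 fell in MHC-IIlo. None of the genes on these lists was at 0 in all libraries, and their part in the results below was not tested. In bulk RNA, fewer cells of a type and less RNA per cell cannot be told apart.

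The highest member by far was Yam1 (chr17:39846958-39848788, plus strand of GRCm38), a single-exon gene that RefSeq names as an 18S ribosomal RNA-related pseudogene. It held 759.7, 728, 758, 832 and 749.6 CPM in fresh MHC-IIhi, 646, 688, 712, 970.0 and 836 in fresh MHC-IIlo, 801, 748, 744, 601 and 769 in no-lactate MHC-IIhi and 731, 795, 602, 668 and 680.4 in no-lactate MHC-IIlo. These groups overlapped, and Yam1 passed no test. All members together took 0.216% to 0.287% of the counts of a library, and Yam1 alone 0.0588% to 0.097%. Per kilobase of exon, Yam1 (404 CPM per kb over the 30 libraries) was followed by Gm15564 (128 CPM per kb, overlapping the interferon-induced Parp9) and AW112010 (126 CPM per kb).

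Among the nuclear-body RNAs, Neat1 was higher in fresh MHC-IIlo cells and fell in culture without lactate, while Malat1 passed no test. Neat1 (chr19:5824708-5845478, minus strand) had 154, 102, 141, 118 and 151 CPM in fresh MHC-IIhi and 255, 247, 279.9, 217 and 191 CPM in fresh MHC-IIlo, with no overlap (log2 fold change 0.84 ± 0.12 (SE), edgeR adjusted p = 0.000238). No-lactate cells had 68.3, 67.04, 65.03, 119 and 93.6 CPM in MHC-IIhi and 125, 36.9, 78.98, 74.01 and 141 CPM in MHC-IIlo. The fall passed the test in MHC-IIlo (log2 fold change -1.33 ± 0.25 (SE), edgeR adjusted p = 0.000101), where the groups did not overlap, and in MHC-IIhi (log2 fold change -0.66 ± 0.25 (SE), edgeR adjusted p = 0.0254), where they did. Leaving out fresh library 1 or 5, or no-lactate library 3, 4 or 5, of MHC-IIhi ended the latter call. The difference between the 2 falls did not pass (-0.67 ± 0.35 (SE), edgeR adjusted p = 0.219). With lactate, MHC-IIhi had 127 ± 48.1 CPM of Neat1, against 82.6 ± 23.4 CPM without (SD, n = 5; log2 fold change 0.62 ± 0.40 (SE), edgeR adjusted p = 0.652). The lactate effect in MHC-IIlo minus that in MHC-IIhi was -0.65 ± 0.56 (SE; edgeR adjusted p = 0.763). Lactate cells were not tested against fresh ones. Malat1 had 140.3, 121, 101, 85.2 and 142 CPM in fresh MHC-IIhi and 137, 140.4, 179, 142 and 143 CPM in fresh MHC-IIlo (log2 fold change 0.34 ± 0.13 (SE), edgeR adjusted p = 0.0632). Malat1, fresh subset difference, had an adjusted p of 0.0421 with DESeq2 and 0.0155 with the replicate block.

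Of 16 speckle and paraspeckle protein genes, 1 rose and 8 fell in culture in MHC-IIhi, and 2 rose and 7 fell in MHC-IIlo. Over all genes, 31.6% rose and 30.4% fell in MHC-IIhi, and 27.6% and 29.9% in MHC-IIlo. Sfpq, a core paraspeckle protein, fell by 0.48 ± 0.08 (SE; edgeR adjusted p = 3.43e-05) and by 0.59 ± 0.08 (SE; edgeR adjusted p = 2.59e-06) on the log2 scale in MHC-IIhi and MHC-IIlo. Nono did not pass in MHC-IIhi (0.05 ± 0.09 (SE), edgeR adjusted p = 0.63) or MHC-IIlo (0.0025 ± 0.09 (SE), edgeR adjusted p = 0.985). Son rose in both subsets (0.27 ± 0.09 and 0.51 ± 0.09 (SE)) and Rbm14 rose in MHC-IIlo (0.30 ± 0.08 (SE)). The median of the list was -0.18 in MHC-IIhi, beside 0.01 over all genes, and -0.08 in MHC-IIlo, beside -0.01. Between the fresh subsets 1 of the 16 fell and none rose.

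On the X chromosome, Xist fell in culture without lactate as well. It had 204, 146, 104, 89.5 and 163 CPM in fresh and 44.8, 60.5, 86.1, 96.1 and 66.6 CPM in no-lactate MHC-IIhi (log2 fold change -0.96 ± 0.26 (SE), edgeR adjusted p = 0.00264), and 146, 165, 182, 200.4 and 133 against 113, 39.9, 109.6, 115 and 139 CPM in MHC-IIlo (log2 fold change -0.64 ± 0.25 (SE), edgeR adjusted p = 0.0367). Single libraries overlapped between the states in both subsets, and leaving out fresh library 3 or 4, or no-lactate library 3 or 4, of MHC-IIlo ended the call there. With lactate, MHC-IIhi had 118 ± 39.0 CPM of Xist, against 70.8 ± 20.5 CPM without (SD, n = 5; log2 fold change 0.74 ± 0.32 (SE), edgeR adjusted p = 0.451). The lactate effect in MHC-IIlo minus that in MHC-IIhi was -1.09 ± 0.45 (SE; edgeR adjusted p = 0.661). In the no-lactate MHC-IIlo library numbered 3, Malat1, Neat1 and Xist were each the lowest of their group (39.1, 36.9 and 39.9 CPM). Ftx, the neighbour of Xist that carries microRNAs, ranged from 1.14 to 5.07 CPM over the libraries and passed no test. Airn, the antisense RNA of the imprinted Igf2r domain, had 0.111, 0.177, 0.306, 0.0467 and 0.0991 CPM in fresh and 2.26, 2.36, 1.93, 1.44 and 2.21 CPM in no-lactate MHC-IIhi, and 1.18, 0.2102, 1.000, 0.974 and 0.102 and 3.17, 4.396, 4.59, 4.45 and 5.39 CPM in MHC-IIlo. Its groups did not overlap in either subset (log2 fold change 3.79 ± 0.50 (SE), edgeR adjusted p = 1.07e-06 in MHC-IIhi and 2.71 ± 0.41 (SE), edgeR adjusted p = 7.04e-06 in MHC-IIlo). Igf2r, the coding gene across it, rose in MHC-IIhi (0.73 ± 0.12 (SE), edgeR adjusted p = 1.74e-05) and had 0.11 ± 0.12 (SE), edgeR adjusted p = 0.437 in MHC-IIlo, a difference between subsets of -0.62 ± 0.17 (SE), edgeR adjusted p = 0.016.

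**Figure D1:**
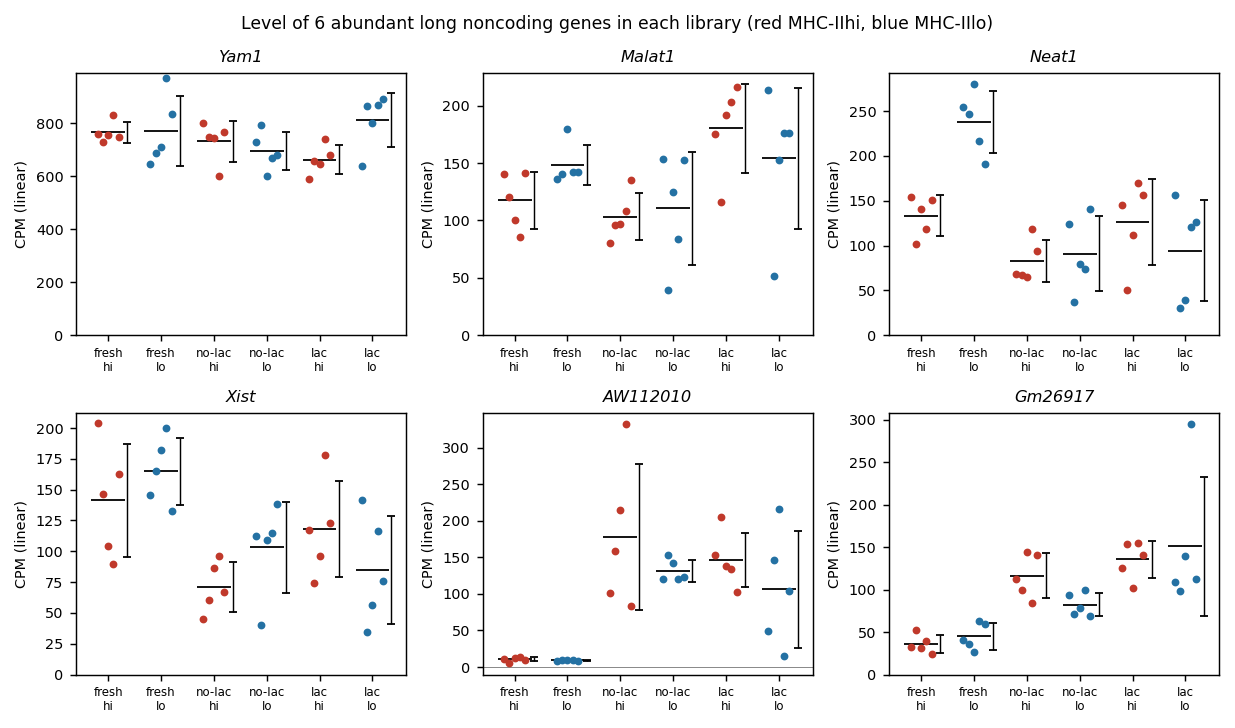
Level in CPM (linear axis) of 6 abundant long noncoding genes in each of the 30 libraries, by group, with red points for MHC-IIhi, blue for MHC-IIlo, a bar at the group mean and a whisker of 1 SD (n = 5). AW112010 lies between 6.09 and 13.8 CPM in all fresh libraries and above them in every cultured one, and the Gm26917 value of 295 CPM is the lactate MHC-IIlo library numbered 5.

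Most hosts of small RNAs were low. Snhg6 and Snhg12, which carry small nucleolar RNAs, and Snhg20 ran from 6.33 to 18.9, from 4.48 to 19.5 and from 0.623 to 3.44 CPM. Snhg20 passed no test, while Snhg6 and Snhg12 each passed in at least 1 of the 9 comparisons. Epb4.1l4aos, also on the list of hosts, was lower in fresh MHC-IIlo without overlap (log2 fold change -0.62 ± 0.17 (SE), edgeR adjusted p = 0.0144). Pvt1, the neighbour of Myc, ran from 8.59 to 37.5 CPM and passed no test. Another host that changed was the microRNA-155 precursor. Gm26667 (chr16:84703167-84715245, plus strand) is Mir155hg in GENCODE M21 and spans the miR-155 hairpin (chr16:84714140-84714204), so the mature sequence it carries is shown from RefSeq (GRCm38.p6), with the seed in capitals. F630028O10Rik spans the miR-223 hairpin and is shown beside it as the other myeloid microRNA host; it was chosen after its values were seen.
mmu-miR-155-5p: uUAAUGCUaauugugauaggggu
mmu-miR-223-3p: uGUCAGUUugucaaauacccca

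The 2 seeds differ, and their hosts had unlike profiles. Gm26667 had 0, 0, 0, 0.0467 and 0.0991 CPM in fresh MHC-IIhi and 0.224, 0, 0, 0.146 and 0 CPM in fresh MHC-IIlo. After culture without lactate it had 2.401, 2.54, 2.27, 3.75 and 4.19 CPM in MHC-IIhi and 0.234, 0.0346, 0.277, 0.249 and 0.147 CPM in MHC-IIlo, with no overlap between the subsets (log2 fold change -3.96 ± 0.45 (SE), edgeR adjusted p = 1.84e-06). With lactate the values were 4.28, 2.500, 4.23, 7.37 and 9.05 and 0.342, 0.191, 0.442, 1.33 and 0.687 CPM (log2 fold change -3.296 ± 0.41 (SE), edgeR adjusted p = 5.41e-06). The rise in MHC-IIhi over fresh cells was 97.2-fold, with a 95% exact interval for counting error of 33.00 to 473, against 3 fresh counts in all, and the rise differed between the subsets (difference -5.05 ± 1.25 (SE), edgeR adjusted p = 0.00887; leaving out the fresh MHC-IIlo library numbered 1 ended that call). F630028O10Rik fell in MHC-IIhi from 2.77 ± 0.579 to 0.772 ± 0.439 CPM (SD, n = 5; log2 fold change -1.81 ± 0.40 (SE), edgeR adjusted p = 0.000474). The counts are of the host genes, not of the mature microRNAs.

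Between the fresh subsets, 39 of the 160 members with enough counts passed the test (edgeR adjusted p under 0.05), 23 higher and 16 lower in MHC-IIlo, and 29.2% of the 12787 genes tested did (14% higher and 15.2% lower). Among the 107 tested members with a mean of at least 2 CPM over the 30 libraries, 23 passed. The median log2 difference of the members was 0.03, beside -0.002 over all genes. The largest difference upward in MHC-IIlo was that of Gm26908, across the coding gene Sorbs3, with 1.002, 0.0591, 0.357, 0.5605 and 0.644 CPM in MHC-IIhi and 1.68, 1.84, 2.14, 2.04 and 3.45 CPM in MHC-IIlo (log2 fold change 2.08 ± 0.47 (SE), edgeR adjusted p = 0.00515). Gm10522, which lies 5397 bases from the inhibitory Fc receptor gene Fcgr2b, had 15.5, 9.28, 8.83, 10.6 and 11.2 and 33.7, 21.2, 20.1, 24.8 and 29.04 CPM (log2 fold change 1.24 ± 0.20 (SE), edgeR adjusted p = 0.000439). Neither gene's subsets overlapped.

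AI427809, 101461 bases from the cholesterol exporter gene Abca1, was also higher in fresh MHC-IIlo, with 5.402, 3.13, 5.06, 6.63 and 5.15 against 16.03, 10.8, 14.6, 21.5 and 16.96 CPM (log2 fold change 1.67 ± 0.24 (SE), edgeR adjusted p = 0.000214). Gm21807 (2.56, 1.24, 1.84, 3.22 and 3.77 against 7.46, 6.46, 7.14, 10.3 and 11.1 CPM) and Peak1os (1.89, 1.596, 0.664, 1.73 and 2.03 against 5.27, 3.63, 3.33, 4.72 and 6.14 CPM) were higher without overlap too (log2 fold change 1.75 ± 0.31 (SE), edgeR adjusted p = 0.000968; 1.56 ± 0.32 (SE), edgeR adjusted p = 0.00243). Gm15655 (log2 fold change 1.805 ± 0.35 (SE), edgeR adjusted p = 0.00185) lies wholly within exons of the transcription factor gene Maf on the other strand, and Maf was higher too (1.63 ± 0.20 (SE), edgeR adjusted p = 7.24e-05). Bach2os, antisense to the repressor gene Bach2, was higher (log2 fold change 1.73 ± 0.28 (SE), edgeR adjusted p = 0.000526), while Bach2 had 0.45 ± 0.26 (SE), edgeR adjusted p = 0.234.

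The largest difference downward was that of RP24-226D9.3 (4930512J16Rik in GENCODE M21; chr6:89269511-89285725, minus strand). It had 8.85, 11.1, 8.43, 9.16 and 6.29 CPM in fresh MHC-IIhi and 1.35, 1.103, 1.14, 0.487 and 0.406 CPM in fresh MHC-IIlo (log2 fold change -3.28 ± 0.29 (SE), edgeR adjusted p = 4.43e-06). Gm15987, which contains both mature arms of Mir7649 and overlaps the C-type lectin gene Clec2g, had 1.89, 2.78, 1.79, 1.92 and 2.33 and 0.392, 0.105, 0.191, 0.146 and 0.254 CPM (log2 fold change -3.26 ± 0.37 (SE), edgeR adjusted p = 3.25e-05). These subsets lay apart in every library. Slc36a3os was lower together with its coding partner Slc36a3, of the proton-coupled amino acid transporter family (-2.81 ± 0.40 (SE), edgeR adjusted p = 0.000196; Slc36a3 -3.11 ± 0.41 (SE), edgeR adjusted p = 0.00011). Il1bos, antisense to the cytokine gene Il1b, had 3.17, 2.07, 1.84, 2.57 and 2.48 and 1.01, 1.58, 0.809, 1.36 and 0.558 CPM (log2 fold change -1.18 ± 0.31 (SE), edgeR adjusted p = 0.012), beside Il1b at -1.26 ± 0.23 (SE), edgeR adjusted p = 0.00127. Of the marker sums given above, those of dendritic, lymphoid and tumour epithelial cells were lower in these MHC-IIlo libraries and those of macrophages and neutrophils higher.

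In cultured cells the subsets differed in 47 of 183 tested members without lactate (22 higher and 25 lower in MHC-IIlo; 20.8% of all 13593 genes, 9.2% higher and 11.6% lower) and in 48 of 183 with lactate (16 higher and 32 lower; 22.4% of all genes, 9.13% higher and 13.3% lower). Without the lactate MHC-IIlo library numbered 5, the second count was 55, with 26 higher, and the first, fitted with it, 58, with 28 higher. The direction split without lactate differed on the deposited FPKM values (pseudocount 1, limma), where 24 of 40 calls were higher. That run changed the scaling, the test and the filter together, and the part of each was not tested. Among the 118 members at 2 CPM or more over all libraries, 26 and 31 passed. The median log2 differences of the members were 0.07 and -0.09, beside -0.01 and 0.02 over all genes.

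The largest subset difference in cultured cells was that of Gm13546 (chr2:58164001-58177063, plus strand), antisense to Cytip, a cytohesin-binding regulator of leukocyte adhesion. It was below 1 CPM in fresh cells, with 0.223, 0, 0.919, 0.187 and 0.0991 CPM in MHC-IIhi and 0, 0.105, 0.0952, 0 and 0 CPM in MHC-IIlo. After culture without lactate it had 6.76, 6.17, 13.3, 12.4 and 5.77 CPM in MHC-IIhi, while MHC-IIlo had 0, 0.0346, 0, 0 and 0 CPM, which is 1 count in 5 libraries. The ratio of the groups was 1181-fold, with a 95% exact interval for counting error of 212 to 46701 (edgeR adjusted p = 1.04e-09). With lactate, MHC-IIhi had 9.26, 5.79, 4.64, 7.13 and 8.27 CPM and MHC-IIlo 2 counts (edgeR adjusted p = 1.96e-09). Cytip, the coding gene across it, shares no exon with it in GENCODE M21, and had 169 ± 21.3 and 35.3 ± 6.59 CPM in the fresh subsets and 110.1 ± 28.6 and 5.49 ± 2.303 CPM in no-lactate cells (SD, n = 5). The antisense gene thus rose in MHC-IIhi culture while Cytip fell there (-0.59 ± 0.21 (SE), edgeR adjusted p = 0.0201).

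Gm10851 (chr2:11521706-11530836, plus strand), antisense to the glycolytic regulator Pfkfb3, rose likewise. All 10 fresh libraries had 0 counts. No-lactate MHC-IIhi had 2.78, 1.82, 3.82, 2.396 and 2.72 CPM and no-lactate MHC-IIlo 0, 0.139, 0, 0.0416 and 0 CPM (log2 fold change -5.96 ± 0.62 (SE), edgeR adjusted p = 5.53e-07). Against the limit of 3 counts over the 5 fresh libraries, the rise in MHC-IIhi was at least 87.2-fold. With 0 fresh counts, its culture interaction did not pass (-5.95 ± 14617 (SE), edgeR adjusted p = 0.9999). Pfkfb3 was lower in MHC-IIlo as well (434 ± 31.5 against 149 ± 5.21 CPM, SD, n = 5). The promoters of these 2 genes are shown because both were low in fresh cells and rose in MHC-IIhi culture. They are RefSeq windows of 300 bases (250 before and 50 after the start, GRCm38.p6), at chr2:58163724-58164023 and chr2:11521392-11521691, both on the plus strand, and capitals mark matches to the searched motifs.
Gm13546 promoter: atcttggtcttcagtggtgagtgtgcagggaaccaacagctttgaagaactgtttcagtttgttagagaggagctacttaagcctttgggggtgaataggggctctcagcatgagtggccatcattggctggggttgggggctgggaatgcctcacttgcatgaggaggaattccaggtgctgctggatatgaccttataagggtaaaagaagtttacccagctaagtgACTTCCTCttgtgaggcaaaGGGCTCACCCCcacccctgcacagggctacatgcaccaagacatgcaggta
Gm10851 promoter: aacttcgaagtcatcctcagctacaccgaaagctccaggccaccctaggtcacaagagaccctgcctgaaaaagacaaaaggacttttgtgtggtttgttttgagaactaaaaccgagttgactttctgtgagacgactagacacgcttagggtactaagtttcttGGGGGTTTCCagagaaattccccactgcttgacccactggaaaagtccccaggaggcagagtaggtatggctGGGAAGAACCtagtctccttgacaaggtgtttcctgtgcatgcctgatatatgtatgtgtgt

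The Gm13546 window holds 1 match to the PU.1 motif GAGGAAGT, on the reverse strand, and 2 overlapping matches to the NF-kB motif (GGG, any 5 bases, CC), and the Gm10851 window 2 matches to the latter. Both strands were searched, also for the AP-1 motif TGANTCA and the interferon element (GAAA, any 2 bases, GAAA). The NF-kB letters are in 50.8% of all 32851 RefSeq promoter windows of that length and PU.1 in 3.2%, AP-1 in 7.81% and the interferon element in 3.44%. Of the 82 members whose RefSeq start lay within 100 bases of the table's, 54.9% held the NF-kB letters, 6.1% PU.1, 6.1% AP-1 and 7.32% the interferon element. A match is a description of letters, not of binding.

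A subset difference of the opposite sign in cultured cells was that of Gm14461 (chr2:78237547-78302230, plus strand), a lincRNA whose nearest coding gene lies 291172 bases away. It had 1.72, 2.497, 0.671, 1.74 and 1.47 CPM in no-lactate MHC-IIhi and 6.88, 9.66, 13.5, 7.94 and 12.8 CPM in no-lactate MHC-IIlo (log2 fold change 2.66 ± 0.35 (SE), edgeR adjusted p = 1.1e-05). With lactate the values were 1.19, 1.62, 1.22, 0.766 and 0.333 and 5.08, 5.34, 6.23, 3.47 and 6.35 CPM (log2 fold change 2.32 ± 0.37 (SE), edgeR adjusted p = 9.38e-05). The subsets did not overlap in either state, while the 10 fresh libraries lay between 0 and 0.286 CPM. Gm14461 also rose in MHC-IIhi culture without lactate, from 3 to 201 counts, a ratio of 51.4-fold (95% exact interval for counting error 17.3 to 251). Its culture effect did not pass as different between the subsets (0.46 ± 1.86 (SE), edgeR adjusted p = 0.906). AI504432, 1434 bases from the potassium channel gene Kcna3, was lower in MHC-IIlo, with 15.5, 13.8, 21.7, 20.8 and 15.1 against 2.57, 2.91, 2.69, 4.03 and 3.299 CPM without lactate (log2 fold change -2.45 ± 0.26 (SE), edgeR adjusted p = 7.03e-07). Kcna3 moved alike (12.01 ± 2.18 against 2.16 ± 0.572 CPM, SD, n = 5). Trp53cor1 (lincRNA-p21, near the cell-cycle inhibitor gene Cdkn1a) had 3.12, 3.904, 1.64, 1.79 and 4.78 and 0.434, 0.554, 0.712, 0.624 and 0.2199 CPM (log2 fold change -2.54 ± 0.53 (SE), edgeR adjusted p = 0.00149). With lactate its difference did not pass (log2 fold change -1.05 ± 0.50 (SE), edgeR adjusted p = 0.145), and the library numbered 5 held 4.85 CPM against 0.349 to 0.796 CPM in the other 4 of lactate MHC-IIlo. Without that library, Trp53cor1, lactate-cultured subset difference, was -2.09 with an edgeR adjusted p of 0.000492.

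Ptgs2os2, near the prostaglandin synthase gene Ptgs2, was lower in no-lactate MHC-IIlo (5.56, 5.27, 4.15, 4.22 and 6.84 against 1.84, 1.97, 2.81, 2.08 and 1.61 CPM, log2 fold change -1.304 ± 0.30 (SE), edgeR adjusted p = 0.0031), and Ptgs2 was too (-3.81 ± 0.76 (SE), edgeR adjusted p = 0.00094). Gm16685, antisense to the cytokine gene Il7, had 2.64, 2.59, 2.85, 2.61 and 2.43 and 0.234, 0.4500, 0.712, 0.333 and 0.1100 CPM (log2 fold change -2.798 ± 0.40 (SE), edgeR adjusted p = 3.16e-05), with Il7 at 0.03 ± 0.28 (SE), edgeR adjusted p = 0.955. Gpr137b-ps, a transcribed pseudogene that shares 29.4% of its longest transcript with Gpr137b at 98% identity or more, was higher in MHC-IIlo in all 3 states. It had 59.96, 72.8, 45.7, 62.2 and 61.6 and 94.2, 119, 115, 105 and 118 CPM without lactate (log2 fold change 0.897 ± 0.19 (SE), edgeR adjusted p = 0.00139), and its reads may be split with the parent gene.

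**Figure D2:**
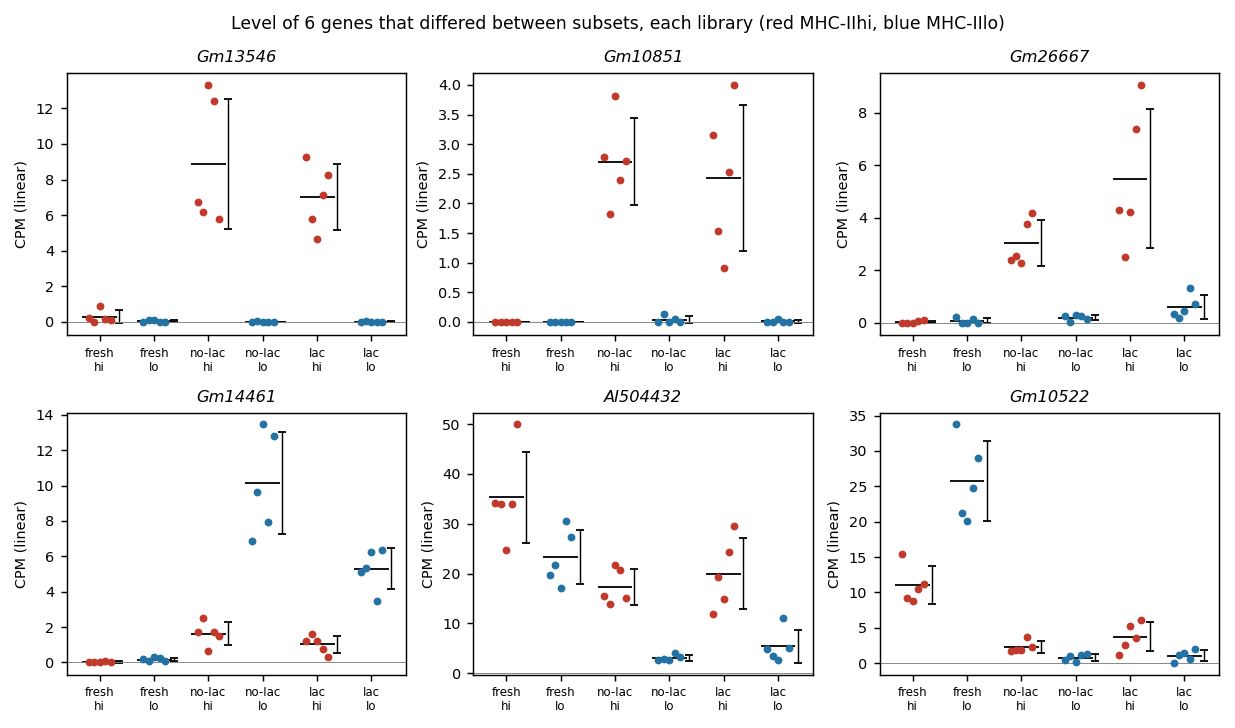
Level in CPM (linear axis) of 6 genes named for subset differences in each of the 30 libraries, by group, with red points for MHC-IIhi, blue for MHC-IIlo, a bar at the group mean and a whisker of 1 SD (n = 5). Gm13546 and Gm10851 have group means above 1 CPM in cultured MHC-IIhi and in no other group, Gm26667 is highest there, and Gm14461 is highest in cultured MHC-IIlo.

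Across the 3 states, 7 members were higher in MHC-IIlo each time (Gpr137b-ps, C330006A16Rik, Peak1os, Gm21807, 1110046J04Rik, Gm16104 and Gm26908) and 7 lower each time (5830432E09Rik, AU020206, Bvht, RP24-226D9.3, Gm15880, RP23-137N6.2 and Gm15987). For patterns over several states no share over all genes was taken. C330006A16Rik had 27.9 ± 2.498 and 39.6 ± 4.18 CPM fresh and 17.98 ± 2.01 and 27.3 ± 2.26 CPM without lactate (SD, n = 5). Bvht, first described as a heart-lineage RNA, had 8.41 ± 1.34 and 3.94 ± 1.28 CPM fresh and 4.65 ± 0.844 and 1.72 ± 0.4598 CPM without lactate. In 2 members the call changed direction. Fam169b was higher in fresh MHC-IIlo (log2 fold change 0.97 ± 0.16 (SE), edgeR adjusted p = 0.000469) and lower after culture (log2 fold change -0.803 ± 0.27 (SE), edgeR adjusted p = 0.0371), and Gm37800 likewise (1.03 ± 0.29 (SE), edgeR adjusted p = 0.0174; -1.15 ± 0.35 (SE), edgeR adjusted p = 0.0215).

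Culture without lactate changed more members than any other contrast. In MHC-IIhi 132 of 189 passed (81 higher and 51 lower; 62% of all 13682 genes, 31.6% higher and 30.4% lower) and in MHC-IIlo 127 (77 higher and 50 lower; 57.5% of all genes, 27.6% higher and 29.9% lower). Of these, 108 passed in both subsets, 67 rising and 40 falling in both. No share over all genes was taken for passing in both, so these counts describe the members only. The 1 other, 5330426P16Rik (Dubr), rose in MHC-IIhi and fell in MHC-IIlo. Among the 118 members at 2 CPM or more over all libraries, 80 and 70 passed, and the median log2 changes of those 118 were 0.37 and 0.39, beside 0.01 and -0.01 over all genes. Antisense members took 0.0324% to 0.0377% of the counts of fresh libraries and 0.0461% to 0.0639% of cultured ones, with no overlap. LincRNA members took 0.184% to 0.234% in fresh and 0.186% to 0.239% in cultured libraries, which overlapped. Since members could enter through any cultured group, the rule itself can raise their share there. The 118 were picked by their mean over the 30 libraries, most of them cultured, which can likewise raise their median changes. The 2 culture contrasts share no library, but they were fitted together and share the estimate of spread.

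An abundant member that rose in both subsets was AW112010 (chr19:11047617-11050566, minus strand), a transcript induced by interferon and bacterial products in myeloid cells. It had 11.6, 6.09, 12.1, 13.8 and 10.2 CPM in fresh and 101, 159, 215, 332 and 83.6 CPM in no-lactate MHC-IIhi (log2 fold change 4.08 ± 0.31 (SE), edgeR adjusted p = 3.22e-10). In MHC-IIlo the values were 8.296, 9.62, 9.71, 9.98 and 8.17 and 120.1, 153, 142, 121 and 123 CPM (log2 fold change 3.904 ± 0.31 (SE), edgeR adjusted p = 7.76e-10). Every cultured library without lactate lay above every fresh one, and with lactate MHC-IIlo had 49.04, 146, 217, 15.2 and 105 CPM, the value of 15.2 CPM being that of the library numbered 5. Its promoter (RefSeq, GRCm38.p6, chr19:11050517-11050816, minus strand) is shown with 2 matches to the NF-kB motif in capitals.
AW112010 promoter: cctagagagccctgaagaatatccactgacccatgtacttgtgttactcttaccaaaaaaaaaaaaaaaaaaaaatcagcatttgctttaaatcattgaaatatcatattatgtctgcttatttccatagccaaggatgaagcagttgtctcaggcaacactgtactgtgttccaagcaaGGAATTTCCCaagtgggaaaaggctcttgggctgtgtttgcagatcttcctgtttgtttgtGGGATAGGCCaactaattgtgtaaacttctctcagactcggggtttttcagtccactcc

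Gm13822 and Gm15564, antisense members across interferon-induced genes, rose too. Gm13822, across Oasl1, an oligoadenylate synthetase-like gene, had 0, 0.0591, 0.664, 0.0467 and 0 CPM in fresh and 12.1, 11.5, 8.098, 8.97 and 8.34 CPM in no-lactate MHC-IIhi (log2 fold change 5.98 ± 0.56 (SE), edgeR adjusted p = 7.12e-09), and 0.504, 0.0525, 0.952, 0.438 and 0.457 and 7.02, 10.4, 8.35, 5.49 and 6.93 CPM in MHC-IIlo (log2 fold change 4.03 ± 0.48 (SE), edgeR adjusted p = 2.83e-07). Oasl1 itself went from 40.2 ± 8.898 to 989.6 ± 229.9 CPM in MHC-IIhi (SD, n = 5). Gm15564, across Parp9, had 62.05 ± 5.89 and 124 ± 30.3 CPM in MHC-IIhi (SD, n = 5; log2 fold change 1.02 ± 0.17 (SE), edgeR adjusted p = 2.1e-05), and Parp9 rose by 2.64 on the log2 scale.

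Several members went from about 0 to a few CPM. Gm13571, antisense to the endocytic receptor gene Ly75, had 0 counts in fresh MHC-IIhi, 3 counts in fresh MHC-IIlo, 4.73, 5.99, 2.895, 3.79 and 5.55 CPM in no-lactate MHC-IIhi and 4.31, 8.83, 8.903, 5.03 and 5.76 CPM in no-lactate MHC-IIlo. Its rise was at least 148-fold in MHC-IIhi (against a limit of 3 counts over the group) and 214-fold, with a 95% exact interval for counting error of 73.1 to 1041 in MHC-IIlo. Ly75 rose in MHC-IIhi (2.26 ± 0.29 (SE), edgeR adjusted p = 7.35e-07) and had 0.59 ± 0.28 (SE), edgeR adjusted p = 0.0793 in MHC-IIlo. Gm14199, antisense to the tubulin-modifying enzyme gene Ttll9, had 1 count in fresh MHC-IIhi and 0 in fresh MHC-IIlo, against 2.64, 4.31, 4.15, 3.48 and 2.21 and 2.105, 1.77, 1.07, 2.29 and 1.43 CPM after culture. Its rise was 315-fold, with a 95% exact interval for counting error of 56.3 to 12484 in MHC-IIhi and at least 56.8-fold in MHC-IIlo. Dnmt3aos, antisense to the DNA methyltransferase gene Dnmt3a, had 0.504, 0.315, 0.238, 0.341 and 0.863 CPM in fresh and 9.92, 6.72, 7.08, 6.57 and 8.101 CPM in no-lactate MHC-IIlo (log2 fold change 4.12 ± 0.41 (SE), edgeR adjusted p = 2.01e-08), and Dnmt3a rose by 1.58 on the log2 scale.

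The largest falls in MHC-IIhi were those of Gm16194 and of Apol7d, which the table places across the fibronectin gene Fn1. Apol7d had 7.41, 12.8, 3.57, 4.998 and 7.73 CPM in fresh and 0.0686, 0.0908, 0.126, 0.0871 and 0.147 CPM in no-lactate MHC-IIhi (log2 fold change -6.02 ± 0.44 (SE), edgeR adjusted p = 1.24e-10). Fn1 itself went from 18103 ± 3522 to 105 ± 26.9 CPM (SD, n = 5), and 13.96% of Apol7d exon bases lie in its exons. Gm16194 went from 231 counts over the 5 fresh MHC-IIhi libraries to 2 counts after culture, a ratio of 151-fold, with a 95% exact interval for counting error of 41.2 to 1251. Gm15880, antisense to the transcriptional coactivator gene Crtc3, had 7.74, 11.6, 7.098, 8.31 and 10.9 and 0.961, 1.32, 1.13, 0.697 and 1.69 CPM in fresh and no-lactate MHC-IIhi (log2 fold change -2.95 ± 0.27 (SE), edgeR adjusted p = 4.65e-09). Of the marker sums given above, tumour epithelial and B cell ones were lower in no-lactate than in fresh libraries, and endothelial and neutrophil ones higher. Single genes of the endothelial and neutrophil lists passed in both directions in each subset, and tumour epithelial genes did so in MHC-IIhi. The part of these markers was not tested.

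**Figure D3:**
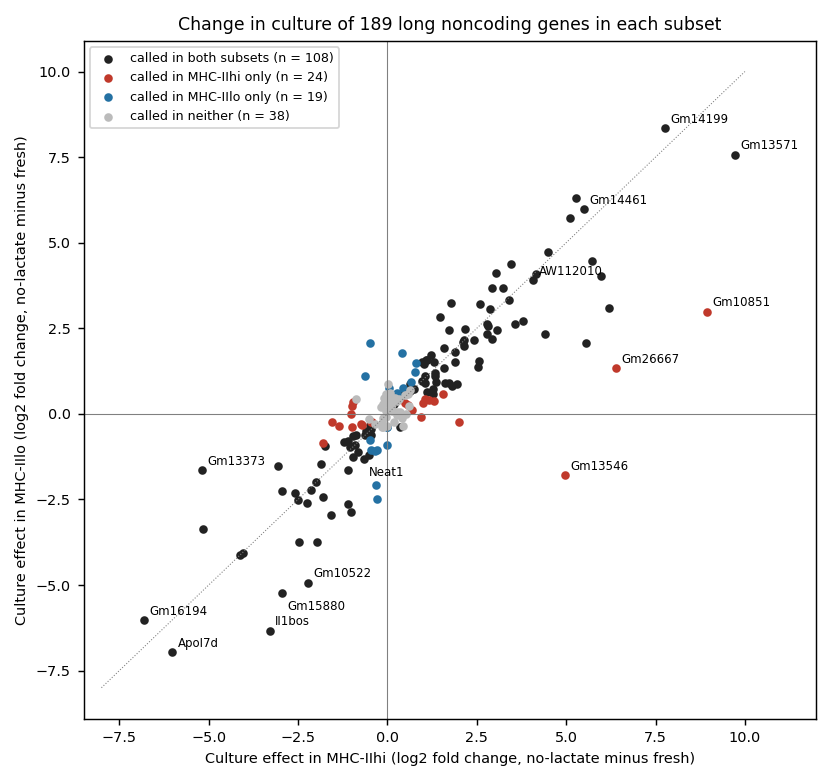
Log2 fold change in culture (no-lactate minus fresh) of the 189 members in MHC-IIhi (x axis) and MHC-IIlo (y axis), with points coloured by where the gene passed the edgeR test and a dotted line of equal change. Of the 189 points 108 passed in both subsets and 38 in neither. Gm13546, Gm10851 and Gm26667 lie far to the right of the line, though Gm10851 did not pass the interaction test. Fitted values of genes with 0 to 3 counts in a group depend on the prior count.

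The culture response differed between subsets in 27 of 189 members (8 more positive and 19 more negative in MHC-IIlo), beside 14.3% of all genes (6.03% more positive and 8.27% more negative). That split differed on the FPKM scale with limma, where 13 of 26 calls were more positive with a pseudocount of 1 and 16 of 33 with 0.1. Those runs changed the scaling, the test and the filter together, and the part of each was not tested. AI504432 and Gm10522 fell further in MHC-IIlo (differences -1.87 ± 0.30 (SE), edgeR adjusted p = 0.000235, and -2.71 ± 0.49 (SE), edgeR adjusted p = 0.000672). Gm10522 thus ended at 1.78, 1.82, 1.93, 3.75 and 2.28 CPM in MHC-IIhi and 0.401, 1.04, 0.119, 1.12 and 1.36 CPM in MHC-IIlo, a reversed order from that in fresh cells, though the no-lactate subset difference did not pass with edgeR (log2 fold change -1.46 ± 0.58 (SE), edgeR adjusted p = 0.0811). Il1bos fell to 0.309, 0.227, 0.252, 0.174 and 0.221 CPM in MHC-IIhi and in MHC-IIlo to 1 count, a ratio to fresh cells of 144-fold, with a 95% exact interval for counting error of 25.2 to 5724 (difference between subsets -3.04 ± 0.74 (SE), edgeR adjusted p = 0.00739), and Il1b also fell further in MHC-IIlo (-4.47 ± 0.48 (SE), edgeR adjusted p = 2.3e-06). RP24-226D9.3 rose in MHC-IIlo (log2 fold change 1.11 ± 0.33 (SE), edgeR adjusted p = 0.00638) and had -0.63 ± 0.28 (SE), edgeR adjusted p = 0.0555 in MHC-IIhi (difference 1.74 ± 0.43 (SE), edgeR adjusted p = 0.00885). Antisense members made 6 of the 27 calls (of 76 tested, 7.89%) and lincRNAs 21 (of 113 tested, 18.6%), beside the 14.3% of all genes. No difference between these shares was tested.

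Few members passed edgeR's test for lactate, and in MHC-IIlo their number depended on the method. In MHC-IIhi 0 of 183 passed edgeR's test, with 26 at an unadjusted p under 0.05, and DESeq2 called 1, beside 0.25% of all genes called by edgeR (0.206% higher and 0.0441% lower). In MHC-IIlo 2 passed, 1 in each direction, with 37 at an unadjusted p under 0.05, beside 1.49% of all genes (0.905% higher and 0.581% lower). DESeq2 called 13 members there, edgeR with the replicate block 21 and limma's voom with quality weights 24. The shares over all genes by these methods are not given here, so their counts cannot be set against the 1.49%. With 1 library left out the edgeR count ran from 0 (no-lactate MHC-IIlo library 1) to 10 (lactate MHC-IIlo library 1), and without lactate MHC-IIlo library 5 it was 1. The median log2 changes of the members were -0.0004 and -0.11, beside -0.0055 and 0.01 over all genes. The lactate effect differed between the subsets in 0 members by edgeR (9 at an unadjusted p under 0.05, and 0 by DESeq2), as in 0% of all genes.

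9530082P21Rik, across Kremen2 and Flywch1, was lower with lactate in MHC-IIlo. It had 7.82, 6.89, 5.18, 5.61 and 4.03 CPM without and 2.65, 2.19, 3.36, 1.81 and 2.14 CPM with lactate, with no overlap (log2 fold change -1.32 ± 0.26 (SE), edgeR adjusted p = 0.015; adjusted p = 0.0532 without the no-lactate MHC-IIlo library numbered 1). In MHC-IIhi it had 5.87, 5.54, 7.804, 9.103 and 5.84 and 5.44, 3.01, 4.38, 4.19 and 3.33 CPM, also without overlap, and did not pass (log2 fold change -0.72 ± 0.25 (SE), edgeR adjusted p = 0.326). The riser was Gm26917, next to Yam1 in the ribosomal RNA-related region of chromosome 17, with 93.5, 70.9, 78.8, 100.2 and 68.95 CPM without and 109.5, 98.3, 139, 295 and 112 CPM with lactate (log2 fold change 0.75 ± 0.19 (SE), edgeR adjusted p = 0.0464). Its groups overlapped by single libraries, and without the lactate MHC-IIlo library numbered 5 the change was 0.52 with an edgeR adjusted p of 0.0844. Mitochondrial ribosomal RNA took 0.0428% to 0.0558% of counts in no-lactate and 0.0599% to 0.228% in lactate MHC-IIlo libraries, and its part was not tested.

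In MHC-IIhi the smallest p-value was that of 2500002B13Rik, with 2.26, 2.81, 2.22, 2.22 and 2.65 CPM without and 3.72, 2.82, 7.03, 4.42 and 7.16 CPM with lactate. These did not overlap, yet the change did not pass (log2 fold change 1.05 ± 0.25 (SE), edgeR adjusted p = 0.106). 5330426P16Rik (Dubr) and Gm26982 followed (0.38 ± 0.13 (SE), edgeR adjusted p = 0.298; 0.77 ± 0.27 (SE), edgeR adjusted p = 0.316). Dnmt3aos, raised in culture, had 9.92, 6.72, 7.08, 6.57 and 8.101 CPM without and 4.44, 1.97, 1.81, 0.427 and 1.74 CPM with lactate in MHC-IIlo. It did not pass either (log2 fold change -1.88 ± 0.49 (SE), edgeR adjusted p = 0.0562), though the groups did not overlap.

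**Figure D4:**
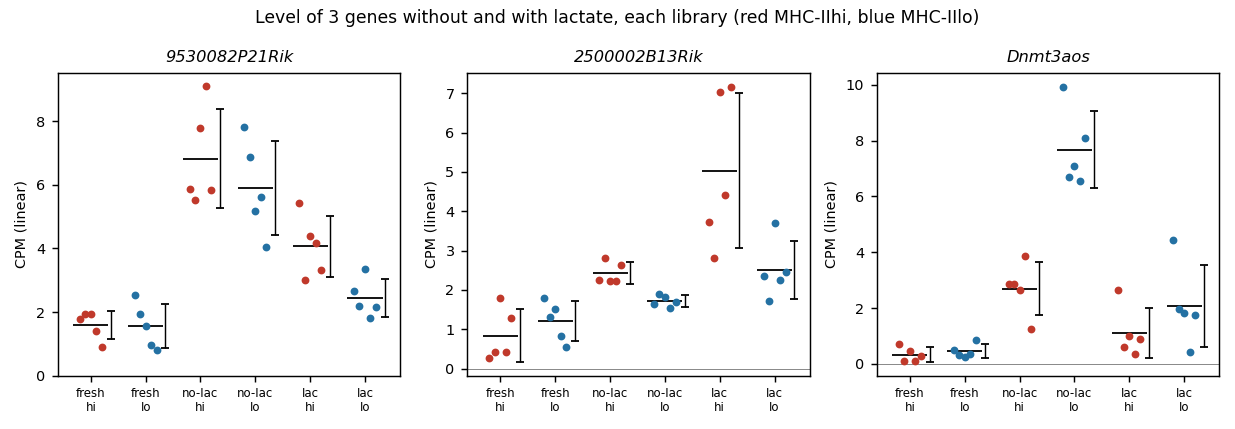
Level in CPM (linear axis) of 3 genes in each of the 30 libraries, by group, with red points for MHC-IIhi, blue for MHC-IIlo, a bar at the group mean and a whisker of 1 SD (n = 5). 9530082P21Rik is lower with lactate in both subsets but passed in MHC-IIlo, 2500002B13Rik is higher with lactate in MHC-IIhi without passing, and Dnmt3aos is lower with lactate in MHC-IIlo without passing.

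Members that overlap a coding gene on the opposite strand mostly moved in the same direction as that gene where both passed. Between the fresh subsets, 18 of 61 such members passed, the partner passed in 13 of these and had the same direction in 12. Without lactate 13 of 22 partners passed, all 13 in the same direction, and with lactate 14 of 20, all 14 in the same direction. In culture 48 of 56 partners passed in MHC-IIhi, 40 in the same direction, and 41 of 55 in MHC-IIlo, 36 in the same direction. Among members that overlap no coding gene, the nearest coding gene had the same direction in 9 of 11 fresh, 9 of 10 no-lactate and 9 of 9 lactate cases in which both passed, and in 27 of 46 and 23 of 38 in culture of MHC-IIhi and MHC-IIlo. The members called in these 5 comparisons numbered 20, 21, 21, 58 and 55. No difference between these shares and those of the overlapping members was tested. Of coding genes above 2 CPM, 31.9% passed between the fresh, 22.3% between the no-lactate and 24.6% between the lactate subsets, 66.7% and 61.7% in culture of MHC-IIhi and MHC-IIlo, and 16.2% in the culture interaction. The partner counts and the member counts come from the same libraries, and without stated strand, reads of overlapping exons cannot be assigned.

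**Figure D5:**
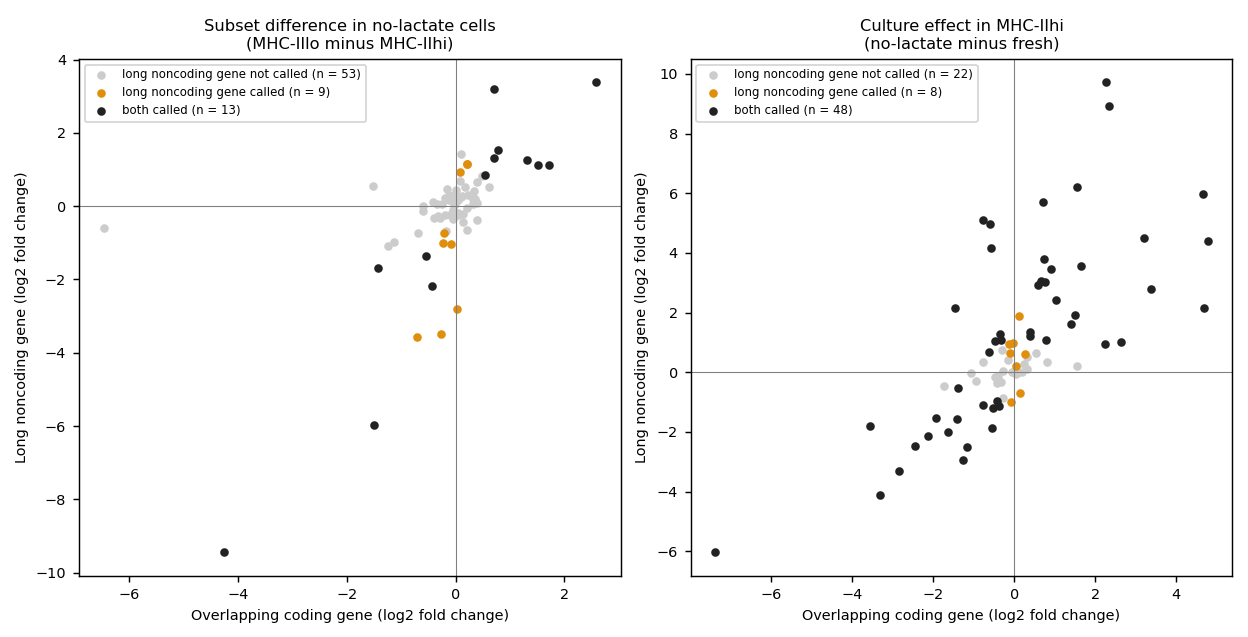
Log2 fold change of members (y axis) against that of the coding gene they overlap on the opposite strand (x axis), for the subset difference in no-lactate cells (75 pairs, left) and the culture effect in MHC-IIhi (78 pairs, right), coloured by which of the pair passed the edgeR test. The 13 black points on the left all lie in the quadrants of equal sign, and 40 of the 48 on the right.

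Of the 189 members, 155 passed in at least 1 of the 9 comparisons and 34 in none. The like share over all genes was not taken. Beside Yam1 and Malat1, the 34 include Pvt1, Ftx, Snhg20, Lincenc1, Zeb2os and Rab10os. A p-value that missed the threshold does not show that these genes were level.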

How the data were processed

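RNA was sequenced from 30 libraries in 6 groups of 5. Per the submitters' processing notes, the authors used Trimmomatic, STAR and featureCounts with GRCm38; versions and the strand setting are not given in the sources used here. The deposited table holds raw counts per gene and, as the authors give it, the GC percent of each gene, and a second deposited table holds FPKM values, used as an alternative. The labels call the libraries biological replicates; if they were not separate animals, p-values measure technical spread. Genes kept by edgeR's filterByExpr were fitted with TMM factors and tested with edgeR 4.0.16 (R 4.3.3), quasi-likelihood F test, 2-sided, Benjamini-Hochberg adjusted over all genes, threshold 0.05. Fresh libraries were fitted apart, cultured libraries together, and culture effects over fresh and no-lactate libraries. Errors are the log2 fold change over the square root of F. The code was tested on simulated data. Alternatives were DESeq2 1.42.0, limma 3.58.1, other filters and scalings, a replicate block and each library left out. Named genes were the 12 highest, the largest calls without overlap in each comparison, role lists and coding neighbours. Members and lists were chosen with earlier results of these data known. Floors are 3 counts over a group. Intervals (95%) and floors cover counting error only.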

Additional observations from a re-analysis of the deposited data

Results flagged for a closer look

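Within groups of 5 with a mean of at least 2 CPM, 245 sets of values of the named members were examined for 1 library far from the other 4, and 18 were found; chance gives about 1 in 20. The lactate MHC-IIlo library numbered 5 gave 8 of them, with the highest value of its group for Gm26917 (295 CPM), AI504432 (11.04 CPM), Snhg12 (17.9 CPM), Epb4.1l4aos (6.83 CPM), Ptgs2os2 (7.52 CPM) and Ftx (5.07 CPM), and the lowest for Gpr137b-ps (68.2 CPM) and AI427809 (8.53 CPM). In no-lactate cells, library 6 of MHC-IIhi was low for Yam1 (601 CPM) and high for Gm10522 (3.75 CPM), library 3 of MHC-IIlo was high for Tnfsf13os (5.82 CPM) and library 5 of MHC-IIlo was low for RP23-192C21.3 (1.83 CPM). In fresh cells, library 3 of MHC-IIlo was high for Malat1 (179 CPM), library 5 of MHC-IIlo for Gm26908 (3.45 CPM), library 1 of MHC-IIhi for Gm15564 (72.3 CPM) and library 2 of MHC-IIhi for Snhg6 (14.96 CPM). With lactate, library 3 of MHC-IIlo was high for Gm15564 (229.5 CPM) and library 1 of MHC-IIhi low for Pvt1 (8.59 CPM).

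The culture effect differed between the subsets by edgeR's interaction test in 16 named members, given here as the effect in MHC-IIlo minus that in MHC-IIhi on the log2 scale. It was more negative in MHC-IIlo for Gm13546 (-6.75), Gm26667 (-5.05), RP23-348K12.3 (-3.49), Il1bos (-3.04), Gm10522 (-2.71), Gm15880 (-2.30), Trp53cor1 (-2.22), AI504432 (-1.87), Gm15655 (-1.74), AI427809 (-0.998), 5330426P16Rik (-0.74) and 1700020I14Rik (-0.37). It was more positive for Gm13373 (3.53), RP24-487F9.4 (2.57), RP24-226D9.3 (1.74) and Gm21807 (1.55). Of these 16 calls, 9 held in every alternative run.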

How the results depend on the processing

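The counts of members passing in the subset and culture comparisons stayed within 1.5 times of the reported counts in each alternative run. With each library left out in turn they ranged from 32 to 39 (fresh subsets), 34 to 58 (no-lactate subsets), 40 to 55 (lactate-cultured subsets), 123 to 133 and 120 to 129 (culture in MHC-IIhi and MHC-IIlo), 20 to 27 (culture interaction), 0 to 0 (lactate in MHC-IIhi and its interaction) and 0 to 10 (lactate in MHC-IIlo). The lactate count in MHC-IIhi was 1 with DESeq2, 1 on FPKM with a pseudocount of 1 and 1 with the replicate block. In MHC-IIlo it was 13 with DESeq2, 24 with limma's voom, 4 and 1 on FPKM with pseudocounts of 1 and 0.1, 21 with the replicate block and 8 with all 30 libraries in 1 fit. Shares over all genes are not given for these lactate runs, so the counts describe the members only. A minimum of 1 CPM gave 299 members, 5 CPM 84, and a mean of 2 CPM over all libraries 118. On the FPKM scale 2 named results reversed: Brip1os, culture effect in MHC-IIhi (-0.0545 and -0.0598 with pseudocounts of 1 and 0.1), and Gm15880, culture interaction (0.46 with 1). The cause was not tested. Of 203 calls of named members, 158 held in every alternative and 45 were lost in at least 1. Same-numbered libraries were treated as sharing only a number, since the labels name no shared animal. Of 23 correlations of their deviations 17 exceeded 0.1 (range -0.32 to 0.50), and 16 of 23 libraries correlated best with their own number. That was 4 of 5 between the fresh subsets, between the lactate subsets and between no-lactate and lactate MHC-IIlo. It was 2 of 4 between the no-lactate subsets and between no-lactate and lactate MHC-IIhi. This is a hint of pairing from the data and not the design, and any such pairing is left out of the main fits. The replicate block gave 47, 50 and 56 calls in the fresh, no-lactate and lactate-cultured subset comparisons and 0 in the lactate interaction.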

Other observations

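The nuclear RNAs Malat1, Neat1 and Xist were low together in the lactate MHC-IIlo library numbered 3 (51.4, 30.3 and 34.6 CPM), as they were in the no-lactate MHC-IIlo library of that number. The lactate MHC-IIhi library numbered 3 had 50.1 CPM of Neat1.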
